A study of Mus musculus with 33 samples.

Results

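Cathepsins and lysosomal membrane genes were followed in mouse bone marrow after 2 days of venetoclax or ruxolitinib. The group was defined by name: 4 cathepsin genes, Ctss, Ctsh, Ctsl and Ctsw, and 3 genes for membrane proteins of lysosomes and late endosomes, Lamp1, Lamp2 and Cd63. All 7 were on the panel, out of 750 endogenous genes, and all 7 were among the 655 genes that could be tested. The rule itself uses no measured value.

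Total bone marrow RNA of 33 female C57BL/6 mice, 6 to 8 weeks old, was measured on the NanoString nCounter. This assay counts single RNA molecules through probes with colour barcodes, with no amplification, and each mouse had its own lane. Venetoclax, an inhibitor of the survival protein BCL2, was given once daily by gavage at 100 mg/kg, and ruxolitinib, an inhibitor of the cytokine-receptor kinases JAK1 and JAK2, was given 2 times a day at 180 mg/kg, both for 2 days (the deposited design text has these figures in mg/ml). The vehicle of venetoclax held phosal, PEG400 and ethanol, and that of ruxolitinib held DMSO, PEG300 and water. On each of days 1, 3 and 7 after treatment there were 3 mice per drug and 2 per vehicle, and 3 mice were untreated, which makes 13 groups. No irradiation or transplant is described for these mice, and the RNA came from whole marrow, so that fewer cells of a type and less RNA per cell cannot be told apart.

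Lysosomes are the acidic compartments in which cells break down material they have taken up or no longer need. Cathepsins are proteases that work there. In antigen-presenting cells, cathepsin S (Ctss) makes the last cuts in the invariant chain, the Cd74 product that guards the groove of MHC class II molecules until they reach the compartment where peptides are loaded. Cathepsin L (Ctsl) makes that cut in thymic epithelium, cathepsin H (Ctsh) is chiefly an aminopeptidase, and cathepsin W (Ctsw) is made mainly by NK cells and cytotoxic T cells. LAMP1 and LAMP2 are the heavily glycosylated proteins that line the lysosomal membrane, and LAMP2 also takes part in autophagy. CD63 is a tetraspanin of late endosomes, lysosomes and the granules of myeloid cells and platelets.

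Ctss, Lamp1 and Lamp2 are the members whose counts differed most clearly between the measurement runs that held the days of the study, as given further on. The 250 bases before their transcription starts are therefore shown first (RefSeq, mouse build GRCm38.p6). Promoters of 5 of the 7 members were matched; those of Ctsh and Ctsw were not, and the windows of Ctsl and Cd63 lie inside the annotated span of their genes and are not described. The sequences are written 5′ to 3′ along the strand of the gene, for Ctss at chr3:95526536-95526785 on the plus strand, for Lamp1 at chr8:13158911-13159160 on the plus strand and for Lamp2 at chrX:38456461-38456710 on the minus strand. Capitals mark matches to CACGTG, the palindromic E-box that factors of the MiT/TFE family such as TFEB can bind, and, on either strand, to the core of the interferon-stimulated response element (ISRE), searched as GAAA, any pair of bases and GAAA.
Ctss: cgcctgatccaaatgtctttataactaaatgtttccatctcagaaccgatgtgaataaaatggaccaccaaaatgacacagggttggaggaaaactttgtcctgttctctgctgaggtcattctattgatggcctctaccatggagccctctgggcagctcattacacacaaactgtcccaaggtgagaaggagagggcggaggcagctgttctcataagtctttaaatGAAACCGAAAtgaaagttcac
Lamp1: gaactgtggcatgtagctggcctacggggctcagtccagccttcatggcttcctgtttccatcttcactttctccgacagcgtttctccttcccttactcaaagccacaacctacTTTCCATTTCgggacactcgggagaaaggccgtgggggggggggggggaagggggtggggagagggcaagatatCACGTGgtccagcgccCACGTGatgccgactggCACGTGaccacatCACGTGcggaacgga
Lamp2: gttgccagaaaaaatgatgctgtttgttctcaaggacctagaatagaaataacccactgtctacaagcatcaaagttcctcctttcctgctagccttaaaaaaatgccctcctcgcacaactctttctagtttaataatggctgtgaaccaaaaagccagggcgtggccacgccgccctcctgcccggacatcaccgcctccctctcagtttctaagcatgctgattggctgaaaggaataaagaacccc
The Ctss window held 1 ISRE core, which began 21 bases before the start (offset -21), and no E-box. The Lamp1 window held 4 E-boxes, at offsets -61, -45, -28 and -15, and 1 ISRE core on the minus strand at -135. The Lamp2 window held neither. Of 32851 mouse promoters of the same length, 6.02% held at least 1 E-box, 7 (0.0213%) held 4 or more, and 2.98% held an ISRE core. A search for TTCNNNGAA, the site form of STAT factors, found no match in the 3 windows shown, and 7.02% of all promoters held it. These motifs were searched after the sequences had been seen. A match is a description of the letters in the window.

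The mice of a day shared a run of 11 lanes, 3 runs in all, and each run also held 1 of the untreated mice. Every drug was thus set against its vehicle inside a run, but the effect of a day and that of a run cannot be told apart. Day 3 is the labelled day of the mice whose run is headed Day 2. The total of endogenous counts ranged from 18056 to 466096 per lane (median 158944), and 2 lanes had fewer than 30000, the first venetoclax mouse of day 1 and the first ruxolitinib mouse of day 3. Counts were scaled to 11 housekeeping probes, and background in a lane, the mean plus 2 SD of its 8 negative probes, was 1.83 to 7.85 counts. All 8 neutrophil markers on the panel were above background in all 33 lanes. Probes differ in efficiency, so a higher count of 1 gene than of another is not read as more RNA, and a summed count leans on the probes with the highest counts.

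Ctss, Ctsh, Lamp1, Lamp2 and Cd63 were above background in all 33 mice, Ctsw in 30 and Ctsl in 24. Ctsh was the steadiest: its scaled counts ran from 145 to 256 with a median of 193, a 1.76-fold range over all groups. Lamp1 ranged from 131 to 446 (median 326, 3.4-fold) and Cd63 from 115 to 370 (median 217, 3.21-fold). The lowest values of Lamp1, Cd63 and Ctss came from 1 lane, the untreated mouse of the day 1 run, with 38.53% of the genes above background. Ctss spread over 8.25-fold, from 25.6 to 211 (median 75.7). The 25.6 rested on 8 raw counts in that lane, and without it the range was 5.44-fold, from 38.8. Without the same lane Lamp1 spread over 2.29-fold and Cd63 over 2.58-fold. Lamp2 spread over 7.06-fold, from 39.1 to 276 (median 73.8). Ctsw stayed low, at 5.5 to 27.7 (median 16.2), and Ctsl ran from 2.12 to 38.5 (median 9.32) on at most 38 raw counts. The SD between mice of the same treated group, on log2(scaled count + 1), was 0.16 for Ctsh, 0.17 for Lamp1, 0.29 for Cd63, 0.37 for Ctss, 0.43 for Ctsw, 0.45 for Lamp2 and 0.67 for Ctsl. Ctsl and Lamp2 also had the largest standard errors of the 7 in each comparison of a drug with its vehicle.

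The order of the 13 group means put day 7 on top for 5 of the 7 members. For Ctss, Ctsh, Lamp1, Lamp2 and Cd63 the 4 highest of the 13 means were the 4 groups of day 7, drug and vehicle alike. How many of all genes have this order was not counted. In vehicle-treated mice, 22.6% of all genes had all day 7 mice above all day 1 mice. The count of 5 of 7 is therefore not read as a result about the members. The means of Ctss on day 7 were 187 ± 17.3 for venetoclax (SD, n = 3), 184 ± 14.4 for its vehicle (n = 2), 177 ± 47.8 for ruxolitinib (n = 3) and 158 ± 31.5 for its vehicle (n = 2). All other groups lay between 51.5 ± 13 (venetoclax, day 1) and 94.8 ± 75.5 (untreated, n = 3). Of the 12 neighbouring pairs in each order, the mice of the pair were separate in 1 for Lamp2, between the ruxolitinib vehicle of day 7 (163 ± 4.39) and ruxolitinib on day 3 (86.6 ± 38.1). They were also separate in 1 pair each for Ctsh, Ctsl and Lamp1, each by a small step, and in 0 for Ctss, Ctsw and Cd63. The share of all genes with such gaps was not counted, so nothing is read from these counts. Ctsw had another order: untreated mice were highest (22.9 ± 3.80) and ruxolitinib-treated mice of day 1 lowest (10.6 ± 2.61).

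**Figure D1:**
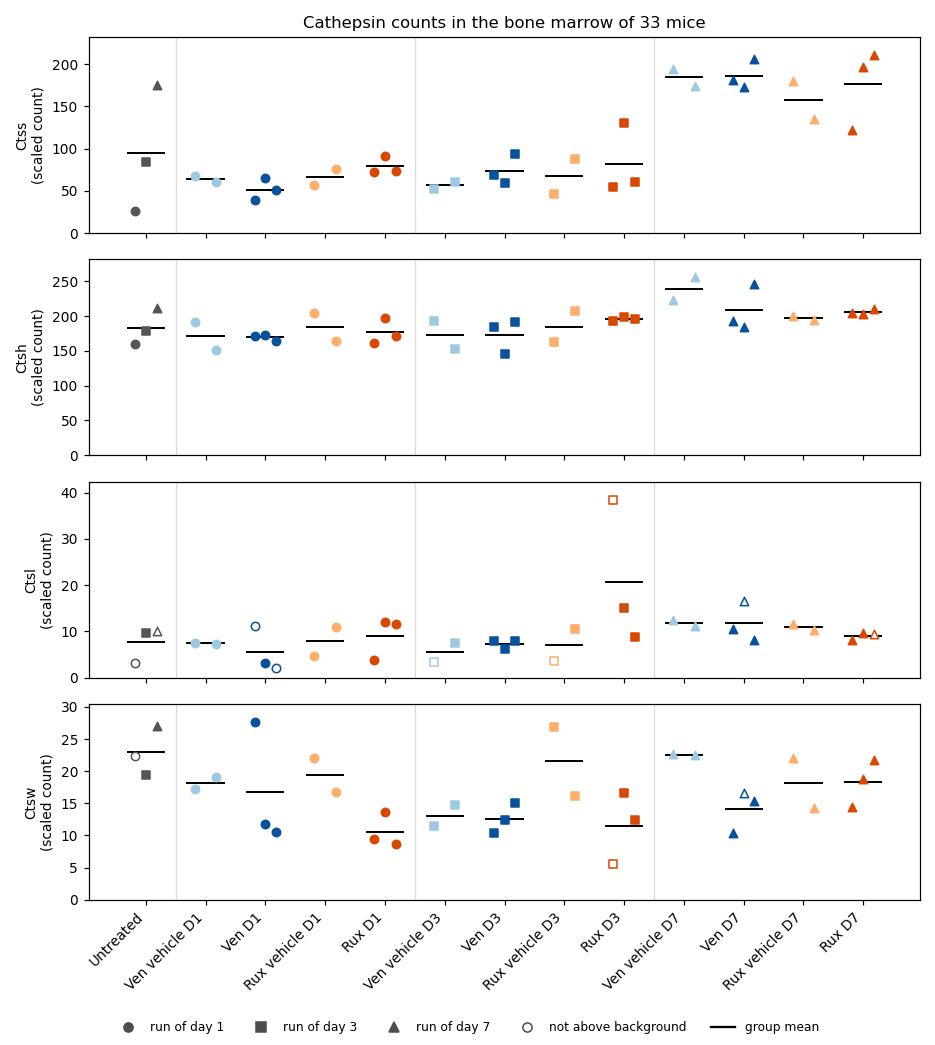
Scaled counts of the 4 cathepsin genes in every mouse (y axis, linear from 0) by group (x axis); each point is a mouse, the bar is the group mean, the shape gives the run and an open point was not above background. Ctss is higher in all groups of the day 7 run, Ctsh is nearly level, and Ctsl and Ctsw rest on low counts.

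**Figure D2:**
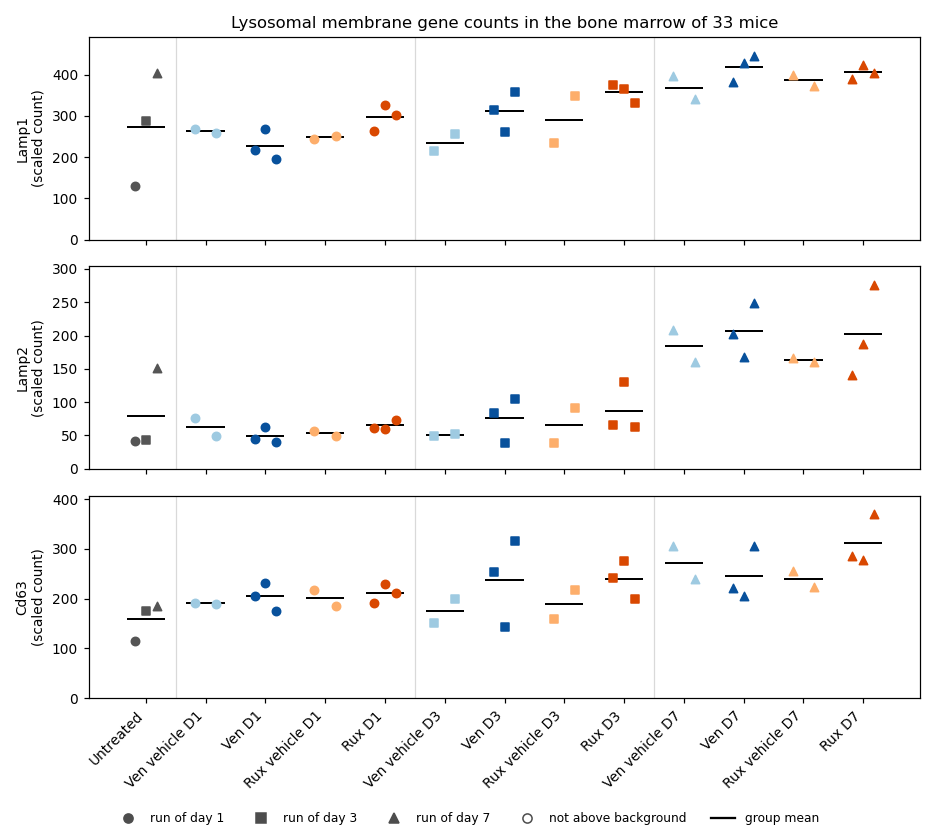
Scaled counts of Lamp1, Lamp2 and Cd63 in every mouse (y axis, linear from 0) by group (x axis), drawn in the same way. All 11 mice of the day 7 run, the untreated mouse among them, lie at 141 or more for Lamp2 and the 22 other mice at 131 or less, a separation seen for 1.98% of all genes.

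The main question of the design was whether either drug changed gene expression against its own vehicle. For these 7 genes no change passed the test on any day after either drug. Each comparison used the quasi-likelihood test of edgeR, fitted once to all 13 groups, with p-values adjusted over 655 genes by Benjamini-Hochberg and a threshold of 0.05. The 3 comparisons for venetoclax called 0.153%, 0.0% and 0.153% of all genes on days 1, 3 and 7, and those for ruxolitinib called 2.75%, 0.153% and 0.153%, so few genes of any kind were called except on day 1 after ruxolitinib. Of the 42 member tests, 1 had an unadjusted p under 0.05, as did 312 of the 3930 tests of all genes (7.94%). DESeq2 and limma also called 0 of the 7 members in each of the 6 comparisons. In counts simulated for venetoclax on day 1, a comparison that holds the lane with the lowest total, 48% of genes changed 2-fold and 89% of genes changed 4-fold were recovered. Among genes with a mean scaled count of at least 20 these shares were 73.6% and 100%. The 5 members other than Ctsl and Ctsw exceed that count. No other comparison was simulated. The simulation gave all genes 1 common spread and changed 100 genes by each fold, while 1 gene was called in the measured comparison. In that comparison the standard errors were 0.41 for Ctss and 0.44 for Lamp2, against 0.21 for Ctsh. The shares therefore do not tell which change of a single member would be found. Changes of 2-fold or less could be missed, and so could larger ones. Cd74, at a log2 fold change of -1.22 on day 1 after venetoclax, was not called (edgeR adjusted p = 0.0814). The 95% intervals in that comparison reached down to -2.43 for Ctsl and -1.16 for Lamp2.

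**Figure D3:**
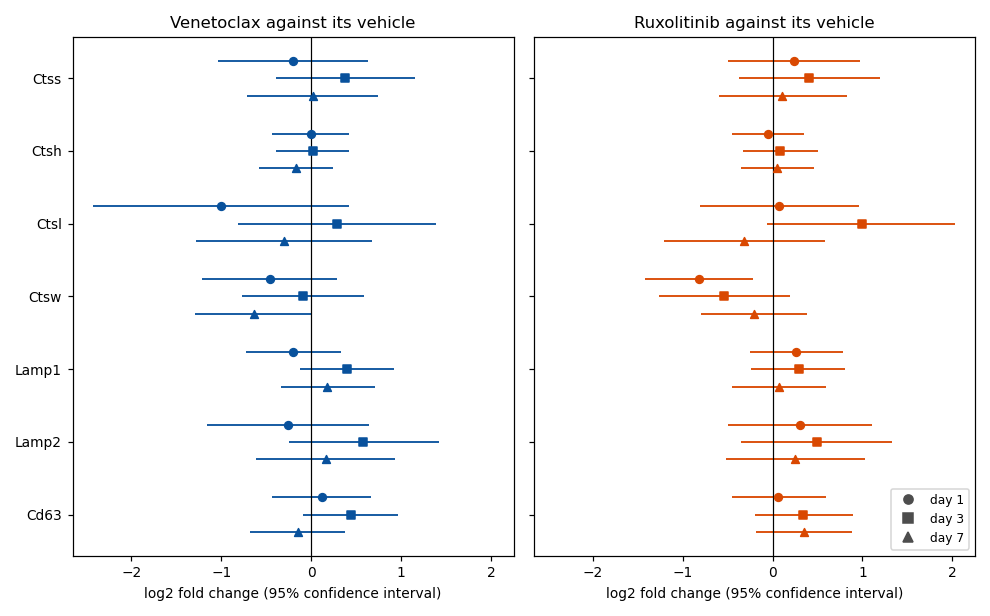
Log2 fold change of each member against its vehicle (x axis; points, with 95% confidence intervals as lines) for venetoclax (left) and ruxolitinib (right) on days 1, 3 and 7. The intervals are narrow for Ctsh and wide for Ctsl, and the only interval that does not reach 0 is that of Ctsw on day 1 after ruxolitinib (-1.42 to -0.22).

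Ctsw came nearest to a change. On day 1 its scaled counts were 9.41, 13.6 and 8.75 in ruxolitinib-treated mice and 22 and 16.8 in vehicle-treated mice. All 3 treated mice lay below both vehicle-treated mice, as they did for 16.3% of all genes in this comparison. In the same mice Lamp1 (264, 326 and 301 against 243 and 252) and Lamp2 (61.5, 60.0 and 73.8 against 56.8 and 49.3) lay above both vehicle-treated mice, as did 27.6% of all genes. Of 8 neutrophil markers 1 was below 0 in this comparison (median log2 fold change 0.66), and none was called. Of all genes 59.1% were above 0 in it. Their summed scaled count was 9470 to 12800 against 8180 to 8380 without the S100a8 probe, and 79100 to 92900 against 96700 to 103000 with it. Of 11 monocyte and macrophage markers 3 were below 0 (median 0.49), at 584 to 705 against 601 to 666. The part of these cells in the Lamp1 and Lamp2 values was not tested. The log2 fold change of Ctsw was -0.82 (standard error 0.30, 95% interval -1.42 to -0.22), with an unadjusted p of 0.0093 and an adjusted p of 0.175 by edgeR's quasi-likelihood test. Under 11 other settings it ran from -0.91 to -0.71 with adjusted p from 0.0707 to 0.716, and it was called under none of them.

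On day 7 Ctsw was 10.4, 16.6 and 15.3 after venetoclax and 22.7 and 22.5 after its vehicle. The treated mice had 6, 7 and 49 raw counts, of which the 7 was not above background, and the vehicle-treated mice 58 and 8. Again all treated mice lay below both vehicle-treated mice, which held for 10.7% of all genes, and the log2 fold change was -0.64 (standard error 0.32, edgeR adjusted p = 0.999). On day 3 the 3 ruxolitinib-treated mice had 5.5, 16.6 and 12.4 against 26.9 and 16.2 in vehicle-treated mice, so the groups overlapped, and the log2 fold change was -0.54 (standard error 0.36, edgeR adjusted p = 0.998). The lowest of these values rested on 1 raw count in the shallow lane, and without it the log2 fold change was -0.46. Over the 5 mice left out in turn it ran from -0.17 without the first vehicle-treated mouse to -0.93 without the second ruxolitinib-treated mouse. In the other comparisons the log2 fold change of Ctsw was -0.46 and -0.09 after venetoclax on days 1 and 3 and -0.21 after ruxolitinib on day 7. With single mice left out these ran from -0.67 to -0.21, from -0.26 to 0.15 and from -0.35 to 0.27, respectively. In the reported setting the sign was negative in all 6, though that of ruxolitinib on day 7 turned to 0.02 under 1 of 11 other settings. Leaving out 1 mouse turned the sign in 2 of 5 cases for venetoclax on day 3 and in 1 of 5 for ruxolitinib on day 7. Among the other members, the groups were also separate for Lamp1 on day 3 after venetoclax (higher, as for 85 of 655 genes) and, on day 7 after ruxolitinib, for Cd63 and Ctsh (higher, as for 8.09% of all genes) and Ctsl (lower, as for 9.62%), with log2 fold changes of 0.40, 0.35, 0.05 and -0.32 and none called.

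Because Ctsw is a gene of NK cells and cytotoxic T cells, their 16 markers on the panel were read beside it. None of the 16 was called in any of the 6 drug comparisons by edgeR, DESeq2 or limma, and 15 of the 96 tests had an unadjusted p under 0.05 by edgeR, beside 7.94% of the tests of all genes. Their summed scaled count on day 1 was 209 to 224 after ruxolitinib and 295 to 314 after its vehicle, without overlap. On day 7 it was 181 to 277 after venetoclax and 237 to 323 after its vehicle, with overlap. On day 3 it was 203 to 297 after ruxolitinib and 316 to 323 after its vehicle, and 233 to 283 after venetoclax and 306 to 375 after its vehicle, without overlap in either case. It also overlapped in the remaining pair of comparisons. There it was 189 to 316 against 242 to 265 after venetoclax on day 1 and 191 to 298 against 250 in both vehicle-treated mice after ruxolitinib on day 7. The median log2 fold change over the 16 was 0.05 after ruxolitinib on day 1, where 7 of the 16 were below 0, and -0.34 after venetoclax on day 7, where 12 were. On day 3 it was -0.36 after ruxolitinib, with 13 below 0, and -0.20 after venetoclax, with 10. It was -0.21 after venetoclax on day 1, with 10 below 0, and -0.22 after ruxolitinib on day 7, with 12. Of all genes, 48.2%, 55.1% and 49.6% were above 0 after venetoclax on days 1, 3 and 7. After ruxolitinib these shares were 59.1%, 51.8% and 51.9%. Gzmb and Gzmk, granule proteases of these cells, were above background in 2 of 33 mice each, and Prf1, the gene of perforin, in 5. The part of these cells in the Ctsw values was not tested.

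Ctss was read beside Cd74, the gene of its substrate. On day 1 Ctss was 38.8, 64.8 and 50.9 after venetoclax and 68.0 and 60.5 after its vehicle, with a log2 fold change of -0.20 (95% interval -1.04 to 0.63). Ctss was 72.2, 91.1 and 73.8 after ruxolitinib and 56.8 and 75.7 after its vehicle, with a log2 fold change of 0.24 (95% interval -0.50 to 0.97). The groups overlapped in both. Cd74 in the same mice was 161, 273 and 180 after venetoclax against 533 and 456, a log2 fold change of -1.22, and 811, 1110 and 1160 after ruxolitinib against 514 and 571, a log2 fold change of 0.92, though neither passed the test (edgeR adjusted p = 0.0814 and 0.215). Between the drugs, the venetoclax change minus the ruxolitinib change on day 1 was -2.14 for Cd74 (standard error 0.50, edgeR adjusted p = 0.0172) and -0.44 for Ctss (standard error 0.55, edgeR adjusted p = 0.767). Whether the Ctss and Cd74 differences are unlike each other was not tested.

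**Figure D4:**
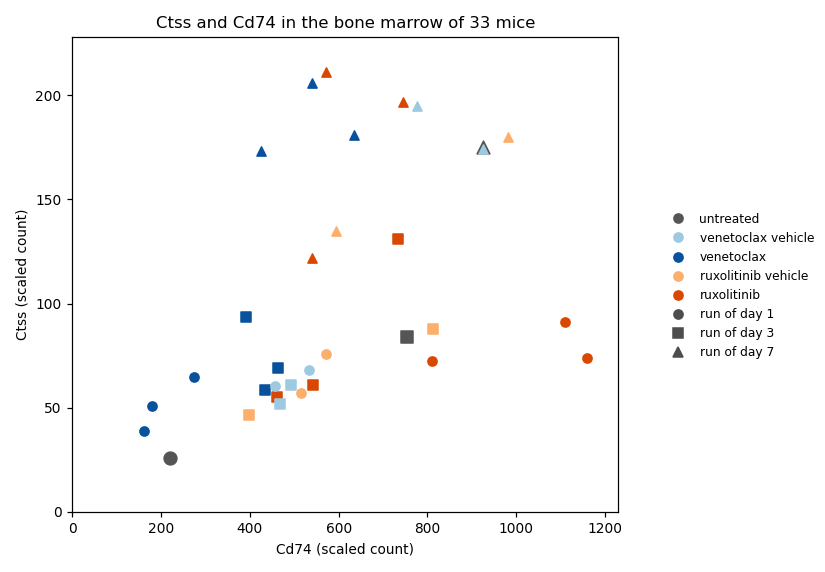
Scaled count of Ctss (y axis) against that of Cd74 (x axis) in each of 33 mice, coloured by treatment and shaped by run. The mice of the day 1 run, the untreated mouse included, spread along Cd74, from 161 to 1160, with Ctss at 25.6 to 91.1. In this run Ctss was 25.6 to 64.8 in the venetoclax-treated and untreated mice, at Cd74 of 161 to 273. It was 56.8 to 75.7 in vehicle-treated mice (Cd74 456 to 571) and 72.2 to 91.1 after ruxolitinib (Cd74 811 to 1160). Ctss thus tended to be higher where Cd74 was higher, with overlap, and the correlation of the pair was not tested. The mice of the day 7 run lie at 122 to 211 for Ctss with Cd74 at 424 to 982.

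Ctsl gave the widest estimates. Its scaled counts on day 1 were 11.1, 3.11 and 2.12 after venetoclax, from 2, 5 and 1 raw counts, and 7.55 and 7.17 after its vehicle. The highest and the lowest of these treated mice were not above background, and the log2 fold change was -1.0 (standard error 0.70, edgeR adjusted p = 0.707), with -1.33 without treated mouse 1 and -0.64 without treated mouse 2. On day 3 it was 38.5, 15 and 8.68 after ruxolitinib against 3.67 and 10.5, a log2 fold change of 0.99 (standard error 0.52, edgeR adjusted p = 0.997). The 38.5 came from 7 raw counts in the shallow lane and was not above background, and without that mouse the log2 fold change was 0.75 (edgeR adjusted p = 0.94). It was 0.53 without the first vehicle-treated mouse and 2.03 without the second, the extremes over the 5 mice left out in turn, and none of these passed.

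Among the membrane genes, Lamp2 on day 3 after venetoclax had the largest estimate. The treated mice had 83.6, 39.1 and 105 and the vehicle-treated mice 49.6 and 52.5, so 1 treated mouse was below both vehicle-treated mice and 2 were above. The log2 fold change was 0.58 (standard error 0.41, 95% interval -0.25 to 1.42, edgeR adjusted p = 0.659), and it ran from 0.27 without treated mouse 3 to 0.88 without treated mouse 2. The same 3 mice were ordered alike for Cd63 (254, 143 and 316, against 150 and 199) and for Lamp1 (315, 260 and 358, against 214 and 256), the second mouse lowest and the third highest each time. Of 8 neutrophil markers 7 were above 0 after venetoclax, with a median log2 fold change of 1.07, and none was called. Of all genes 55.1% were above 0. Their summed scaled count without the S100a8 probe, which gives most of the counts, was 9540 to 21400 after venetoclax and 7670 to 9300 after its vehicle, and with it 90800 to 121000 and 97700 to 111000. On the same day after ruxolitinib all 8 were above 0 (median 0.31), beside 51.8% of all genes, at 10500 to 18200 against 8400 to 12400 without S100a8. The part of these cells in the day 3 values was not tested.

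The median over the 7 members after venetoclax, as a log2 fold change, was -0.20 for day 1 (range -1.0 to 0.12), 0.38 for day 3 (-0.09 to 0.58) and -0.15 for day 7 (-0.64 to 0.18). The medians over all 655 genes were -0.02, 0.06 and -0.01. After ruxolitinib the members' median was 0.07 on day 1 (-0.82 to 0.31), 0.34 on day 3 (-0.54 to 0.99) and 0.07 on day 7 (-0.32 to 0.35), beside 0.13, 0.02 and 0.02 over all genes. Each of these 6 medians of the members moved by over 1.5 times when single mice were left out. After venetoclax they ran from -0.37 (without treated mouse 2) to -0.12 (without treated mouse 3) on day 1, from 0.18 (without treated mouse 3) to 0.54 (without vehicle-treated mouse 2) on day 3 and from -0.085 (without vehicle-treated mouse 2) to 0.057 (without vehicle-treated mouse 1) on day 7. After ruxolitinib they ran from 0.0036 (without treated mouse 2) to 0.30 (without treated mouse 1) on day 1, from 0.048 (without vehicle-treated mouse 1) to 0.60 (without vehicle-treated mouse 2) on day 3 and from 0.013 (without treated mouse 3) to 0.27 (without vehicle-treated mouse 1) on day 7. Ctsh was the best bounded: its 95% intervals over the 6 comparisons lay within -0.58 and 0.51 on the log2 scale.

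The difference between the drugs, each against its own vehicle, was tested on each day, and 0 of 7 members passed on any day by edgeR, DESeq2 or limma, with 0 at an unadjusted p under 0.05. These tests called 1.68%, 0.153% and 0.305% of all genes on days 1, 3 and 7. The members' differences ran from -1.08 (Ctsl, standard error 0.83, edgeR adjusted p = 0.587) to 0.36 on day 1, where that of Lamp2 was -0.57 (standard error 0.59, edgeR adjusted p = 0.731). They ran from -0.70 (Ctsl, standard error 0.76, edgeR adjusted p = 0.999) to 0.45 on day 3 and from -0.50 (Cd63, standard error 0.37, edgeR adjusted p = 0.998) to 0.11 on day 7. With single mice left out, the day 1 difference of Ctsl ran from -1.99 (without ruxolitinib vehicle mouse 2) to -0.71 (without venetoclax mouse 2) and that of Lamp2 from -0.89 (without venetoclax mouse 2) to -0.23 (without venetoclax vehicle mouse 1). The day 3 difference of Ctsl ran from -1.74 (without ruxolitinib vehicle mouse 2) to 0.085 (without venetoclax vehicle mouse 2), and the day 7 difference of Cd63 from -0.72 (without venetoclax mouse 3) to -0.30 (without venetoclax vehicle mouse 1). The 95% intervals on day 1 reached from -2.76 to 1.54, so the drugs could still differ by more than 2-fold for some members.

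The other genes of the lysosome did not pass the test after the drugs either. Of 17 other lysosome, phagosome and autophagy genes on the panel 16 were tested, and 0 of 16 passed in any of the 6 drug comparisons by edgeR, DESeq2 or limma, with medians from -0.16 to 0.25. By edgeR 13 of these 96 tests had an unadjusted p under 0.05, beside the 7.94% over all genes. Lamp3, the LAMP gene of mature dendritic cells, was above background in 0 of 33 mice, at 1 to 5 raw counts. Of 4 other tetraspanin genes, 0 passed in any drug comparison by any of these tools, and 3 of 24 edgeR tests had an unadjusted p under 0.05. The list of MHC class II presentation had 8 genes on the panel and left out H2-Dma, which was also measured. Of the 8, only H2-DMb2, a peptide-loading chaperone subunit, passed by edgeR in a drug comparison. Its log2 fold change was 1.19 on day 1 after ruxolitinib (standard error 0.29, edgeR adjusted p = 0.0103). By DESeq2 3 of these 48 tests passed, with H2-Aa, a class II chain, beside H2-DMb2, by limma 0, and by edgeR 18 had an unadjusted p under 0.05. After venetoclax all 8 were below 0 on each day (medians -1.07, -0.77 and -0.58 on days 1, 3 and 7), and their summed scaled count on day 1 was 483 to 697 against 1200 to 1430. Of all genes 48.2%, 55.1% and 49.6% were above 0 on these days. After ruxolitinib the medians were 0.59, -0.07 and -0.30. On day 1, 4 of the 8 differed between the drugs by edgeR, while over the 3 days DESeq2 called 3 such differences and limma 1. Across markers of 8 cell types, Cxcl12, a chemokine of marrow stroma, passed on day 1 after ruxolitinib (log2 fold change 1.93, standard error 0.43, edgeR adjusted p = 0.00533) by edgeR and DESeq2 but not by limma, and no other listed marker passed in a drug comparison by edgeR, DESeq2 or limma. At an unadjusted p under 0.05 by edgeR were 15 of 54 tests of B cell markers, 8 of 48 of neutrophil, 5 of 24 of megakaryocyte and platelet, 3 of 66 of monocyte and macrophage, 3 of 30 of dendritic cell, 1 of 36 of mast cell, basophil and eosinophil and 3 of 36 of stroma markers. The median over the 9 B cell markers was -0.93 after ruxolitinib on day 3 and -0.73 on day 7, with summed scaled counts of 310 to 407 against 596 to 628 and of 251 to 340 against 535 to 538. Between the drugs on day 1, Thbs1, the gene of thrombospondin 1, was the only cell type marker called (-1.95, standard error 0.51, edgeR adjusted p = 0.0385), by edgeR and DESeq2 and not by limma.

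Vehicle gavage itself was compared with no treatment. Over the 6 vehicle groups against the 3 untreated mice, 0 of 7 members passed the edgeR test, with 0 at an unadjusted p under 0.05, and DESeq2 and limma also called 0. This comparison called 0.0% of all genes, and 75 genes had an unadjusted p under 0.05. The log2 differences, vehicle over untreated, ranged from -0.20 (Ctsw) to 0.38 (Cd63, 95% interval -0.03 to 0.79), in a fit that leaves out the run. With the run as a block, added after seeing the data, they ranged from -0.27 (Ctsw) to 0.43 (Cd63, edgeR adjusted p = 0.409) and their median moved from 0.05 to 0.305. Ctss turned from -0.05 to 0.31 and Lamp1 went from 0.10 to 0.25, again with 0 of 7 passing and 0 genes called. In that fit Cd63 alone of the 7 had an unadjusted p under 0.05, as did 76 of all genes. The untreated mice came from 3 runs and differed widely from each other: Ctss was 25.6, 83.7 and 175 in the runs of days 1, 3 and 7, Lamp1 was 131, 287 and 404, and Lamp2 was 41.6, 43.3 and 152. Within the runs, the vehicle-treated mice differed from the untreated mouse for Ctss by 1.31, -0.47 and -0.05 on the log2 scale, for Lamp1 by 0.95, -0.15 and -0.10, for Lamp2 by 0.45, 0.34 and 0.19 and for Cd63 by 0.76, 0.03 and 0.45. The untreated mouse of the day 1 run was low for all 4, and with 1 untreated mouse per run these values have no test.

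Levels also differed between the runs of days 7 and 1 with no drug given, and this comparison was added after the data were seen. Day and run cannot be told apart in it. The untreated mouse of the day 7 run, which has no day after treatment, had 175 for Ctss, 404 for Lamp1 and 152 for Lamp2. Ctss, Lamp2 and Lamp1 were higher in vehicle-treated mice of day 7 than of day 1 (4 mice each, both vehicles together). Ctss was 195, 174, 180 and 135 on day 7 and 68.0, 60.5, 56.8 and 75.7 on day 1, with a log2 fold change of 1.39 (standard error 0.28, edgeR adjusted p = 0.000589). Lamp2 was 209, 160, 166 and 160 on day 7 and 76.6, 49.4, 56.8 and 49.3 on day 1, with a log2 fold change of 1.61 (standard error 0.31, edgeR adjusted p = 0.000384). All 4 mice of day 7 lay above all 4 of day 1 for both genes, as they did for 22.6% of all genes.

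Lamp1 differed less. It was 396, 340, 399 and 373 on day 7 and 268, 259, 243 and 252 on day 1, with a log2 fold change of 0.57 (standard error 0.20, edgeR adjusted p = 0.0285). Cd63 (0.40, edgeR adjusted p = 0.143), Ctsl (0.55, 0.268), Ctsh (0.29, 0.163) and Ctsw (0.20, 0.552) had positive log2 fold changes that did not pass. That of Ctsl ran from 0.39 to 1.01 with single mice left out. Lamp1 and Cd63 too had all day 7 mice above all day 1 mice. In all, 3 of 7 members were called, all higher, in a comparison that called 30.1% of all genes and 20.0% as higher. Read against that background, a count of 3 of 7 is not a result about the members as a group. Ordered by signed log2 fold change, the most positive first, Lamp2 ranked 17 and Ctss 31 of 655 genes, and Lamp1 190. The median over all genes was 0.19, and relative to it Ctss was 1.2 higher, Lamp2 1.42 and Lamp1 0.37.

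The scaling mattered for the smaller of these changes. Higher genes were 131 and lower genes 66 with the housekeeping scaling, 94 and 112 with TMM, 170 and 25 with scaling to the total count, and 96 and 106 with all 20 housekeeping probes. Ctss stayed at 1.17 or more and Lamp2 at 1.40 or more under each of these, and both were called under all 10 other settings and with any of the 8 mice left out. Lamp1 was called under 6 of the 10 (0.34 with TMM to 0.81 with the total count) and in 2 of 8 cases with a mouse left out, so its call depends on these choices. It was lost without any of the 4 vehicle-treated mice of day 1 (0.55 to 0.58, edgeR adjusted p = 0.0646 to 0.0822) and without the first day 7 mouse of the venetoclax vehicle (0.51, edgeR adjusted p = 0.124) or of the ruxolitinib vehicle (0.54, edgeR adjusted p = 0.0921). The positive values of the members that were not called also moved. With TMM Cd63 was at 0.18, Ctsh at 0.07, Ctsl at 0.35 and Ctsw at 0.0, with the total count they were at 0.63, 0.53, 0.80 and 0.43, and Ctsw turned to -0.01 with all 20 housekeeping probes.

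**Figure D5:**
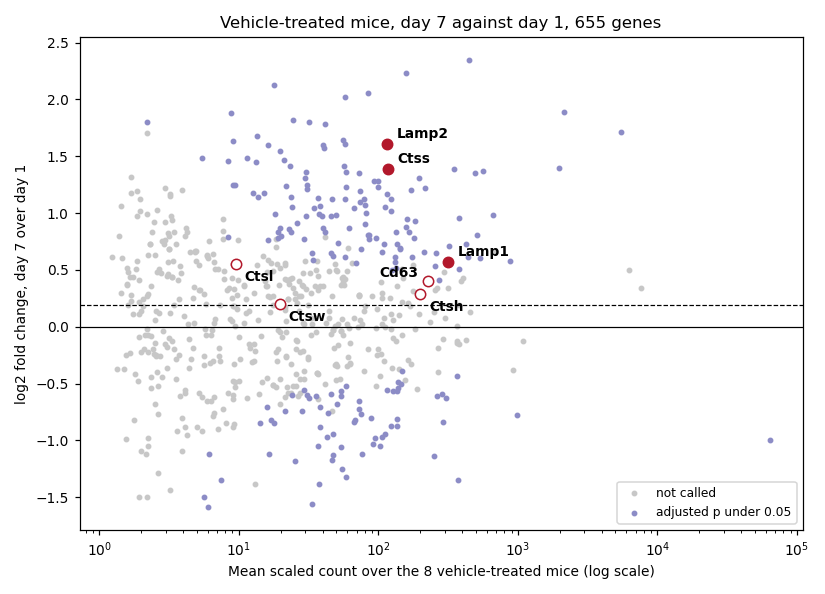
Log2 fold change between vehicle-treated mice of day 7 and day 1 (y axis) against the mean scaled count over these 8 mice (x axis, log scale) for 655 genes; members are in red, filled where called, and the dashed line is the median over all genes (0.19). Lamp2 (1.61) and Ctss (1.39) lie in the upper part of the cloud, Lamp1 (0.57) lower, and Ctsh, Cd63, Ctsl and Ctsw are not called.

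The same split ran through the drug-treated and untreated mice. All 11 mice of the day 7 run had more Lamp2 (141 to 276) than any of the other 22 (39.1 to 131), which held for 13 of 655 genes (1.98%). For Ctss, 10 of the 11 did (122 to 211 in that run, 25.6 to 131 in the others), and for Lamp1 9 of 11 (340 to 446 against 131 to 374). Cd63 had 1 such mouse of 11, Ctsh 5, and Ctsl and Ctsw 0. The share of all genes with 9 or 10 such mice was not counted, so these counts are not read as particular to the members. Between days 3 and 1 vehicle-treated mice showed no such change. By edgeR 0 of 7 members passed, with log2 fold changes of -0.23 to 0.04 and 0 at an unadjusted p under 0.05, DESeq2 and limma also called 0, and 0.0% of all genes were called, with 13 at an unadjusted p under 0.05. The lanes of the day 7 run had a median total of 66683 endogenous counts, against 176425 and 147603 in the runs of days 1 and 3.

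Markers of other cells and other lysosome genes were read beside this split. Of 11 monocyte and macrophage markers 6 were higher on day 7 than on day 1 in vehicle-treated mice and 0 lower (median 0.84), among them Cd68, itself a lysosomal membrane protein of macrophages (1.35, standard error 0.28, edgeR adjusted p = 0.000641), and Emr1, the F4/80 antigen (1.25, standard error 0.24, edgeR adjusted p = 0.000398). Their summed scaled count was 746 to 947 in the vehicle-treated mice of day 7 and 566 to 670 in those of day 1. Of 8 neutrophil markers 6 were higher and 1 lower, Ctsg, the cathepsin of neutrophil granules, at 2.23 (standard error 0.41, edgeR adjusted p = 0.000322), and the lower one was S100a8, a calprotectin subunit (-1.0, edgeR adjusted p = 0.00507). The summed scaled count of the 8, most of it counts of the S100a8 probe, was 57200 to 68500 on day 7 and 82400 to 103000 on day 1, and without S100a8 it was 19100 to 23100 and 8180 to 10100. Of 9 B cell markers 2 were higher and 3 lower (median -0.48), and of 4 megakaryocyte and platelet markers 0 were higher and 1 lower (-0.31). Among 16 markers of NK cells and cytotoxic T cells 3 were higher and 1 lower (0.54), and among 6 of mast cells, basophils and eosinophils also 3 and 1 (0.59). Higher calls were 2 of 5 dendritic cell markers (0.68) and 2 of 6 of marrow stroma (0.80), with 0 lower. Of the 8 listed genes of MHC class II presentation 2 were higher and 1 lower (0.38). H2-Dma, a class II gene outside that list, was also higher (0.87, edgeR adjusted p = 0.0144). Of the 16 other lysosome, phagosome and autophagy genes 5 were higher and 2 lower (median 0.20), beside 20.0% higher and a median of 0.19 over all genes, so nothing is read from that count. Cybb, a subunit of the phagocyte oxidase, was at 1.37, Cd164, a sialomucin of endosomes and lysosomes, at 1.02, and Tfeb, the gene of a regulator of lysosomal genes, at -0.84 (standard error 0.19, edgeR adjusted p = 0.00172). Of 4 other tetraspanins 2 were higher, Cd9 (2.06) and Cd53 (1.60). The part of these cell types, of depth and of the run in the day 7 values was not tested.

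Within the runs, Ctss, Lamp1, Lamp2 and Cd63 varied together from mouse to mouse. Ctsl and Ctsw, which were not above background in all lanes, were left out. After each run's mean was removed, log2(scaled count + 1) of Ctss and Lamp1 had a Pearson r of 0.78 over 33 mice, Lamp2 and Cd63 0.76, Lamp1 and Cd63 0.71 and Ctss and Lamp2 0.70. By rank (Spearman) these were 0.67, 0.77, 0.64 and 0.72, and Lamp1 and Lamp2 were at 0.77 (Pearson 0.66). The pairs of Ctsh with the other 4 well-counted members were at 0.36 to 0.52, and at 0.34 to 0.53 by rank. These are descriptions: the values share lanes and scaling, and group means were not removed, so differences between treatments stay in them. The untreated mouse of the day 1 run, the lowest for Ctss, Lamp1 and Cd63, is among the 33. The median r of a member with 210 genes above background in all lanes was 0.17 to 0.24. Among the genes most like Ctss were Hmgb1 (0.83) and Lcp1 (0.81). Those most like Lamp1 were Cd164 (0.83), Hmgb1 (0.83) and Ccnd3 (0.82). For Lamp2 they were Cybb (0.84), Elane, a protease of neutrophil granules (0.84), and Clec5a (0.82). For Cd63 they were Camp, a peptide of neutrophil granules (0.88), Gpi1 (0.85) and Fcgr2b (0.79). Ctsh had no close companion: Fn1 (0.56), F13a1 (0.56) and Cxcr4 (0.55) came nearest.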

How the data were processed

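The authors deposited raw barcode counts, 1 file per lane, without normalisation; their analysis with nCounter Advanced Analysis (2.0.115, per the labels' processing notes and the methods) is not in these counts. Different panel names are given, a PanCancer immune panel in the methods and an immunology panel in the series' design text. Replicates are separate mice, grouped by their labels. Lanes were scaled to 11 of 20 housekeeping probes (geometric mean), those above background in all 33 lanes, and genes above background in at least 2 lanes (655 of 750) were tested with edgeR 4.0.16 in R 4.3.3 (quasi-likelihood test, 13 group means, residual degrees of freedom 20, common dispersion 0.0406). Standard errors and 95% intervals were derived from the log2 fold change and its p-value. The test was tested on data simulated with 1 common spread for all genes: of 144 genes called 95.1% had been changed, and 0 were called in a comparison with no change.

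Depth was 18056 to 466096 counts per lane. A member is given its own test where its unadjusted p was under 0.05 or its log2 fold change at least 0.5 in size; others are given as ranges and medians. From each list the rule takes up to 3 called genes with the smallest adjusted p, not all of which are printed, and Cd74, Cd68, Lamp3 and Ctsg. Tfeb, S100a8, Gzmb, Gzmk and Prf1 were named after their values were seen. Likeness is Pearson's r of log2(scaled count + 1), a pseudocount of 1. For likeness the 3 genes with the highest r are named, and 1 gene that this rule selects is not reported here. The members, lists and comparisons were chosen with earlier results of these data known. Alternatives were TMM or total-count scaling, DESeq2 1.42.0, limma 3.58.1, no filter, a mean count of at least 20, only the groups compared, both vehicles pooled, a replicate block, and each mouse left out. Leaving out the 2 shallowest lanes, all 20 housekeeping probes, and the run as a block were added after seeing the data. Replicate numbers do not pair the mice: of 12 same-numbered pairs 4 had a correlation of deviations over 0.1 (-0.35 to 0.30). Promoters and positions come from RefSeq for GRCm38.p6. Figures were drawn with matplotlib 3.10.9.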

Additional observations from a re-analysis of the deposited data

How the results depend on the processing

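No alternative gave a called member in any comparison of a drug with its vehicle, of the drugs with each other or of vehicle with untreated mice. Of the members called between vehicle-treated mice of day 7 and day 1, 3 in the reported setting, scaling to the total count gave 5 (Ctsh and Cd63 in addition), other alternatives 2 to 4, and leaving out 1 mouse 2 to 3. The difference between the drugs for Ctsl on day 3, -0.70, turned to 0.085 without the second venetoclax vehicle mouse of day 3 (leave-one-out range -1.74 to 0.085); the cause was not tested. With the replicate number as a block (replicate block) the members called were again 0 in each of the 10 planned comparisons and 3 between days 7 and 1, and Ctsw on day 1 after ruxolitinib was -0.83 (edgeR adjusted p = 0.217). The run as a block left 0 members called between vehicle and untreated mice, with a median log2 difference of 0.305 in place of 0.05, and 0.42 without the third untreated mouse.

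The number of genes called moved more than the members. On day 1 after venetoclax it was 1, from 0 (TMM, limma) to 26 (both vehicles pooled), and on day 1 after ruxolitinib 18, from 5 (limma) to 77 (only the groups compared); between the drugs on day 1 it was 11, from 1 (limma) to 61 (only the groups compared). In the other drug comparisons it was 0 to 2, 0 with some alternatives, and reached at most 9 (both vehicles pooled, ruxolitinib on day 3), for vehicle against untreated 0 and at most 6 (a mouse left out), and between days 7 and 1 it was 197, with 121 by limma, 270 with only the groups compared and 103 to 178 with a mouse left out (103 and 113 without the first day 7 mouse of the venetoclax or the ruxolitinib vehicle). Scaling without Gusb was not run, because Gusb was not among the 11 housekeeping probes used. Ctsl and Ctsw had raw counts of at most 38 and 72.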
